A study of Mus musculus with 6 samples.

Results

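The genes described are Ptchd1, a membrane protein gene named for its patched domain, and 8 genes of the Hedgehog pathway: Ptch1, Disp1, Disp2, Smo, Sufu, Gli1, Gli2 and Gli3. They were found by symbol in the authors' deposited table of shNat14 against NTC, and all 9 were among its 21937 rows. The choice rests on that same comparison, since Ptchd1 was picked because it was called there, so the fold changes and p-values below describe the genes and test nothing further. Of the 9 genes, 8 lay above the lowest mean level of the table. Disp1 sat at that lowest level, a mean log2 CPM (read counts scaled to a common library total) of -3.09 at which 4537 rows sat.

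The samples were cortical cells of mouse embryos. The shNat14 group (3 libraries) received a plasmid with an shRNA against Nat14 by in utero electroporation at embryonic day 14.5, and the NTC group (3 libraries) received a control shRNA in the same way. Brains were taken at embryonic day 18.5 in both groups, and live GFP-positive cells of the dissociated cortex were sorted, so the RNA is that of electroporated cells and their progeny with whatever else passed the gate. The labels name no mouse strain, do not say whether libraries came from separate embryos or litters, and mention no second shRNA or rescue, so the authors' p-values reflect differences between libraries that may be no more than technical replicates.

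Hedgehog ligands are secreted proteins that are acylated, released from the sending cell with the help of Dispatched, and bound on the receiving cell by Patched. Unbound Patched holds the membrane protein Smoothened (Smo) inactive. When ligand binds, Smo acts through the primary cilium to release the Gli transcription factors from their inhibitor Sufu, and Gli1 and Ptch1 are themselves classic targets. In the cortex the pathway is known for patterning, for progenitor division and for glial lineages. PTCHD1 shares the patched domain, is X-linked, and in people its loss is associated with intellectual disability and autism. The protein is reported at excitatory synapses, and a role in Hedgehog signalling has been disputed.

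The 300 bases around the annotated start of Ptchd1 and of Ptch1, its best-known relative, are shown because they let the called gene be read beside the gene that serves as the pathway's own target. They come from RefSeq on GRCm38.p6 (250 bases before and 50 after the start) and capitals mark CG dinucleotides.
Ptchd1 (chrX:155623278-155623577, minus strand): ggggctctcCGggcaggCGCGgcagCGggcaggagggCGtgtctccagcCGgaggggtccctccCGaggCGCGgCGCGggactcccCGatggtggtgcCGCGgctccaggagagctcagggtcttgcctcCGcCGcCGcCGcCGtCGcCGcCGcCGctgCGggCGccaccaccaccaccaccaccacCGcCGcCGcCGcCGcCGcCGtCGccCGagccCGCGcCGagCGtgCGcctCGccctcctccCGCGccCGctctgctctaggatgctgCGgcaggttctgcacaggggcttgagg
Ptch1 (chr13:63565686-63565985, minus strand): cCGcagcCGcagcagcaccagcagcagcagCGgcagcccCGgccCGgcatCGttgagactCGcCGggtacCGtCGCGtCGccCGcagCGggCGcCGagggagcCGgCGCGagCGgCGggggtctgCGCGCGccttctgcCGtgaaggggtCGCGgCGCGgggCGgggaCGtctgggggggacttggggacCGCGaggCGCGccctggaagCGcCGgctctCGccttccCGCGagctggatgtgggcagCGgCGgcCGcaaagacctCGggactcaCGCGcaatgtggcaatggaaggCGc
The Ptchd1 window held 44 CG dinucleotides and 79.0% G or C, and the Ptch1 window 47 and 76.3%. Across 32851 such windows the median was 7 CG dinucleotides, and 2.25% had at least as many as Ptchd1. The letters TGGGTGGTC, the consensus bound by Gli factors, and their reverse complement GACCACCCA were searched on both strands. No exact match stood in the 8 windows available for 7 of the genes (Gli1 and Disp2 had none in the source), against 0.253% of all windows, and none stood there with 1 letter off, against 6.74% of all windows. These are statements about the letters of these windows alone.

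Ptchd1 was higher in shNat14. In the authors' deposited table its log2 fold change was 2.69, which is 6.43-fold, at a mean level of 4.67 log2 CPM (p = 1.33e-05, adjusted p = 0.0127). Taken with that mean, and assuming that it weights both groups equally, the fold corresponds to about 43.9 CPM in shNat14 and 6.83 CPM in NTC. These 2 levels are arithmetic on the authors' deposited table and carry no replicate spread, because values per library were not analysed here. For Nat14, the target of the shRNA, the authors' deposited table lists a log2 fold change of -3.31 (adjusted p = 1.2e-08). The header does not name the direction of the fold change, which was read as shNat14 over NTC from this negative sign, so the sign of Nat14 does not check the labels.

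The call of Ptchd1 depended on the threshold. The authors' deposited table has 34 genes with an adjusted p below 0.05, which is 0.155% of all rows, and Ptchd1 had rank 23 of the 34 by p. Among the 12 called higher it had rank 10 by p and rank 6 by size of the fold. It was not called at a threshold of 0.01, nor after Bonferroni correction of the authors' deposited p-values over all rows (adjusted p = 0.292). Set among the 2118 genes within 0.5 log2 CPM of its own mean level, only Nat14 had a smaller p, and only Cpa3, a mast cell carboxypeptidase gene, had a higher log2 fold change. The authors' deposited table lists Cpa3 at 3.11, without a call (p = 0.117). A fold of this size at this level therefore did not by itself bring a call.

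**Figure D1:**
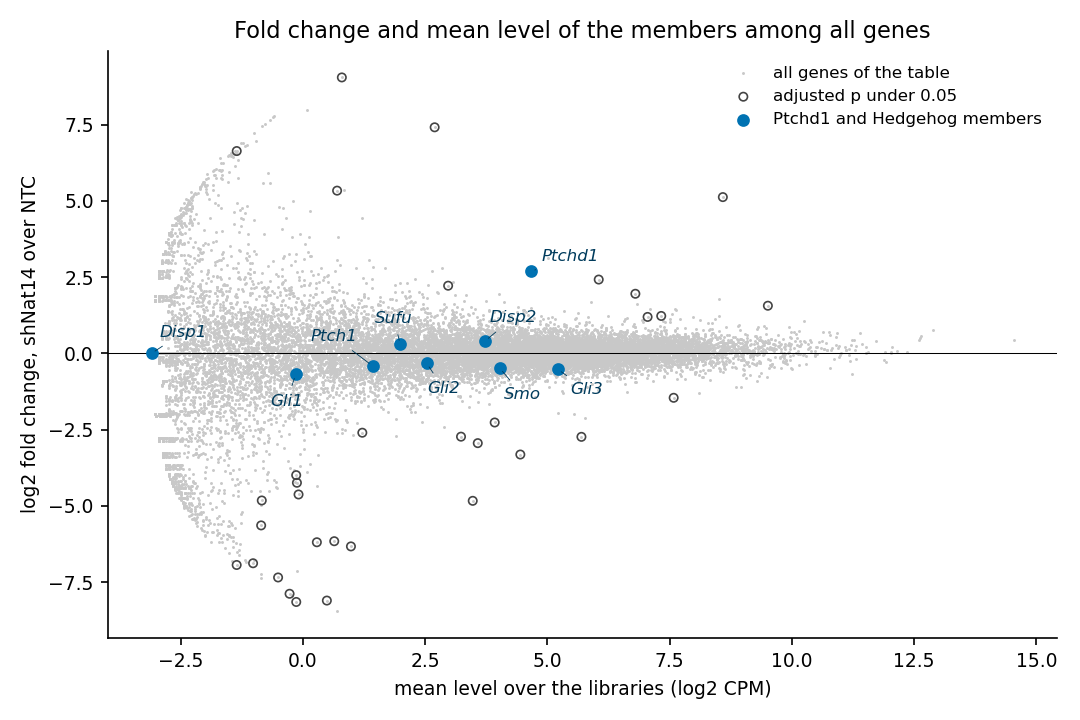
Log2 fold change (shNat14 over NTC, vertical) against mean log2 CPM over the libraries (horizontal) for all genes of the authors' deposited table, with the 9 genes in blue and the 34 genes at adjusted p under 0.05 ringed. Ptchd1 stands at 2.69, above nearly all genes of its level, and the other 8 lie among the genes of their level between -0.69 and 0.41.

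None of the 8 Hedgehog genes was called. Together with Ptchd1 that makes 1 of 9 called, beside 0.155% of all rows, and since the choice of Ptchd1 fixes this count nothing is read from it. The 7 Hedgehog genes above the lowest level ranged in the authors' deposited table between log2 fold changes of -0.69 and 0.41, with a median of -0.41, 2 positive and 5 negative. Their unadjusted p ran from 0.172 to 0.743. Over all 17400 genes above the lowest level the median log2 fold change was 0.00 and the median absolute value 0.34.

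Ptch1, the receptor that binds the ligand and a standard readout of pathway activity, was listed at -0.41 in the authors' deposited table (mean 1.43 log2 CPM, p = 0.519). Disp2, a paralog of the ligand-releasing Disp1, stood at 0.41 (mean 3.73 log2 CPM, p = 0.307) in the authors' deposited table. Among genes within 0.5 log2 CPM of each, 53.0% had an absolute fold change at least as large as that of Ptch1 and 32.4% as that of Disp2. Many genes of their level thus differed as much or more.

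Smo, the signal transducer that Patched restrains, was listed at -0.49 in the authors' deposited table (mean 4.03 log2 CPM, p = 0.206). Sufu, the inhibitor that holds Gli factors in the cytoplasm, was listed at 0.30 in the authors' deposited table (mean 1.99 log2 CPM, p = 0.743). The absolute fold change of Smo was reached by 22.4% of genes of like level and that of Sufu by 61.5%. Neither passed the test.

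The Gli factors had negative fold changes in shNat14, and none of the 3 passed. Gli3, which acts mainly as a repressor in the forebrain, had the smallest p of the Hedgehog members, and the authors' deposited table puts it at -0.52 (mean 5.21 log2 CPM, p = 0.172). With the same arithmetic its level was about 30.5 CPM in shNat14 and 43.7 CPM in NTC. Of the genes within 0.5 log2 CPM of Gli3, 12.8% had an absolute fold change at least as large. Gli2, the main activator, stood at -0.33 (mean 2.53 log2 CPM, p = 0.570) in the authors' deposited table. Gli1, the activator that is itself a target, stood at -0.69 with a mean of -0.15 log2 CPM in the authors' deposited table (p = 0.408), and at that level 49.5% of genes had an absolute fold change at least as large.

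Levels between genes were compared per length, as CPM per kilobase of exon in GENCODE M21, an annotation that may differ from the authors'. The group levels come from the same arithmetic on mean and fold, with no replicate spread. The length is the union of all annotated exons of a gene. It was 3005 bases for Ptchd1, 9589 for Gli3, 5621 for Smo and 14185 for Ptch1, so it weighs on these orders. In shNat14 Ptchd1 was at about 14.6 CPM per kilobase, above Gli3 at 3.18 and Smo at 2.42. Before division by length the same shNat14 levels were 43.9, 30.5 and 13.6 CPM. In NTC the order was another, with Gli3 at 4.56, Smo at 3.39 and Ptchd1 at 2.27 CPM per kilobase. As means over both groups, Disp2 was at 1.39, Gli2 at 0.844 and Sufu at 0.517 CPM per kilobase. Ptch1 at 0.189 and Gli1 at 0.181 CPM per kilobase had the lowest means of the 8 genes. Whether neighbours in these orders differ beyond their spread cannot be read from the table. In bulk RNA such a level cannot tell fewer expressing cells from less RNA per cell.

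The wider pathway was described with 47 genes for ligands, their release, receptors, transducers, Gli factors and targets, 44 of them above the lowest level. Disp2 was not in this list and was counted with the patched-related genes. None of the 47 genes was called by the authors' deposited adjusted p, whereas 0.195% of all genes above the lowest level were. At unadjusted p under 0.05 there were 3 of the 44 (6.82%), beside 6.35% of all genes above the lowest level. Of these, 2 had positive fold changes (4.55%), beside 3.51% of all genes, and 1 a negative one (2.27%), beside 2.84%. These shares are near those of the whole table and are no result about the pathway. In sign, 22 fold changes were positive and 22 negative, where 52.4% of all genes were positive, with a median log2 fold change of -0.04, beside 0.00 over all genes.

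The 3 genes with unadjusted p under 0.05 did different jobs. Dhh, the ligand best known from testis and peripheral nerve, was listed at 2.95 in the authors' deposited table (p = 0.0392, adjusted p = 0.976), at a mean of -1.34 log2 CPM. Gsk3b, a kinase that marks Gli proteins for processing and serves many other pathways, stood at 0.68 (p = 0.0326, adjusted p = 0.921) in the authors' deposited table. Ccnd2, a cyclin of progenitor division used as a target, stood at -0.55 (p = 0.0389, adjusted p = 0.974) in the authors' deposited table.

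Among ligands, Shh was near the lowest level, with a mean of -2.67 log2 CPM and -0.09 as its log2 fold change per the authors' deposited table (p = 1). Ihh stood at 0.18 in the authors' deposited table, also under 1 CPM (mean -0.91 log2 CPM, p = 0.942). The ligand list thus had no member above 1 CPM. Of the receptors, transducers and Gli factors, Lrp2, Gpr161 and Gli1 were also under 1 CPM (means of -0.26, -0.15 and -0.15 log2 CPM). The others were above it. Of the 7 receptors and ligand-binding proteins none had an unadjusted p under 0.05, beside 6.35% of all genes above the lowest level. Their fold changes were 4 positive and 3 negative, where 52.4% of all genes were positive, with a median log2 fold change of 0.44. Gas1, a co-receptor anchored to the membrane, had the smallest p of them, at 0.69 in the authors' deposited table (p = 0.134). The co-receptors Boc and Cdon were put by the authors' deposited table at 0.52 (p = 0.272) and -0.21 (p = 0.605).

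The release genes above the lowest level were 5, with 3 positive fold changes, 2 negative ones and none at unadjusted p under 0.05. Scube1, a secreted protein of the family that carries ligand, had the smallest p there, at 0.52 in the authors' deposited table (p = 0.168). Of 21 transducers 12 had positive and 9 negative fold changes, with a median of 0.07 and Gsk3b as the single one at unadjusted p under 0.05. Of the 8 targets above the lowest level 2 had positive and 6 negative fold changes, with a median of -0.48 and Ccnd2 as the single one at unadjusted p under 0.05. Among all genes above the lowest level 6.35% had such a p and 52.4% a positive fold change. The lists by role are short, and their counts are no result about a role. The targets Ccnd1 and Mycn, genes of the cell cycle, were put by the authors' deposited table at 0.25 (p = 0.420) and -0.21 (p = 0.589). Hhip, a membrane protein that binds and blocks the ligand and is a target as well, stood at 0.64 by the authors' deposited table (p = 0.505).

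**Figure D2:**
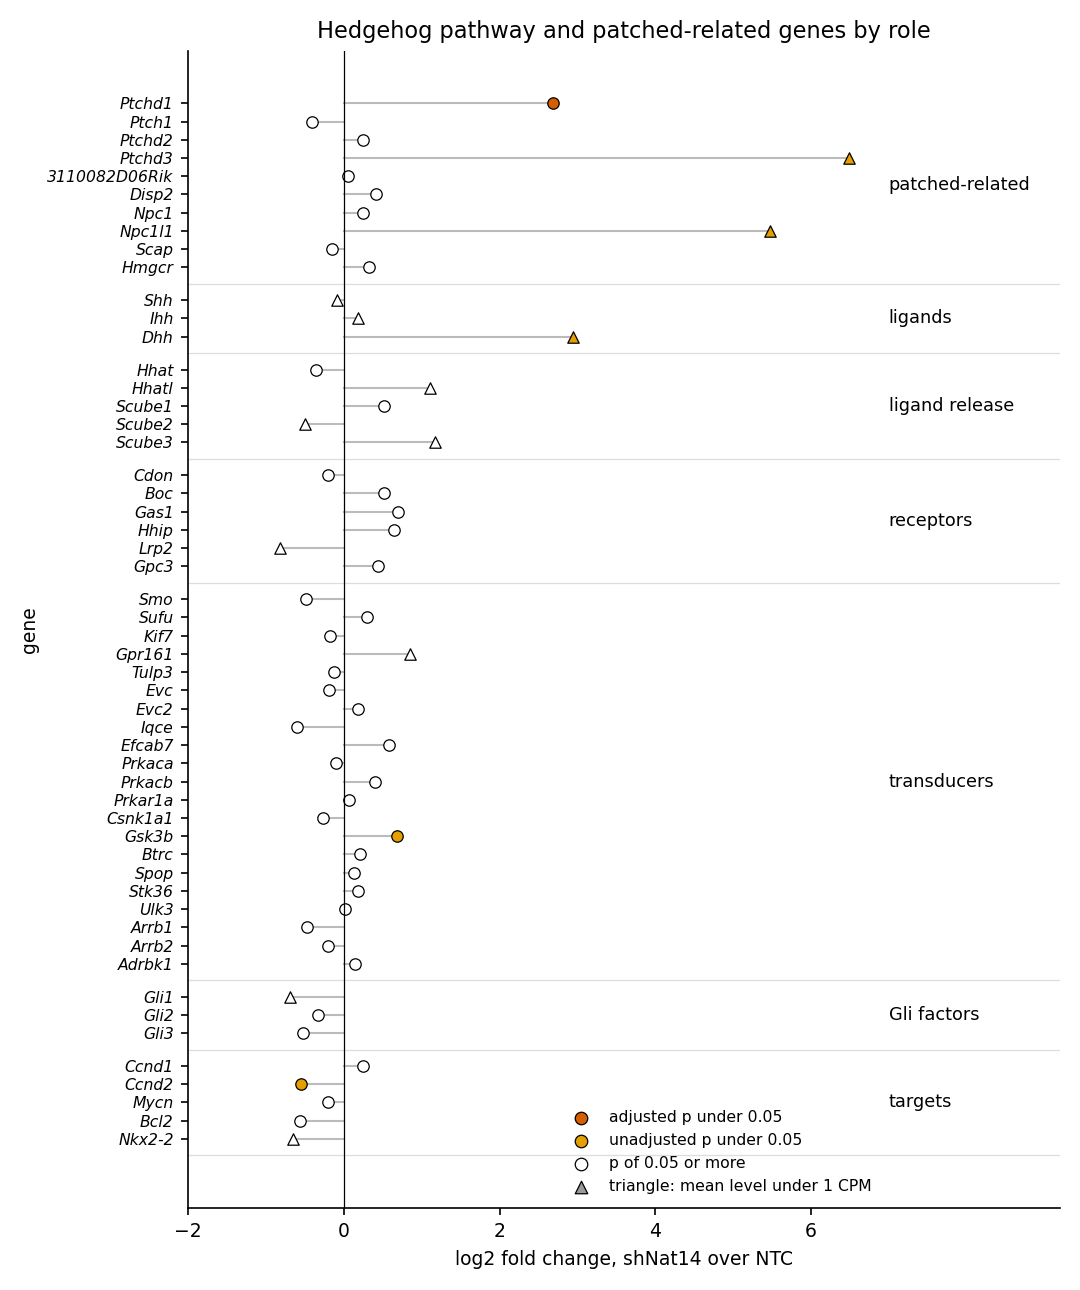
Horizontal axis, log2 fold change (shNat14 over NTC), for each patched-related and Hedgehog gene above the lowest level of the authors' deposited table, grouped by role and drawn once. Colour gives the p class and triangles mark a mean under 1 CPM. Ptchd1 is the single gene at adjusted p under 0.05, and the long bars of Ptchd3 (6.49), Npc1l1 (5.48) and Dhh (2.95) belong to genes under 1 CPM.

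Other genes of the patched and sterol-sensing families were set beside Ptchd1. Of 10 above the lowest level, 8 had positive and 2 negative fold changes, with a median log2 fold change of 0.28, Ptchd1 included. Ptchd2, now named Disp3, stood at 0.25 (p = 0.568) and 3110082D06Rik, now named Ptchd4, at 0.06 (p = 0.957) in the authors' deposited table. Ptchd3, known from mouse testis, stood at 6.49 (mean -1.51 log2 CPM, p = 0.0311, adjusted p = 0.913) in the authors' deposited table. Npc1l1, the intestinal sterol transporter, stood at 5.48 (p = 0.0308, adjusted p = 0.913) in the authors' deposited table. Both were too low for the size of the fold to be read, and neither was called.

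Proteins reported to bind PTCHD1 were also counted, namely the postsynaptic scaffolds Dlg3 and Dlg4, the sorting nexin Snx27 and 4 retromer subunits. None of the 7 had an unadjusted p under 0.05, beside 6.35% of all genes above the lowest level. Their fold changes were 3 positive and 4 negative, where 52.4% of all genes were positive, with a median log2 fold change of -0.17. A list of 7 genes is too short for such counts to be a result about the partners. The smallest p was that of the retromer subunit Vps29, at 0.37 in the authors' deposited table (p = 0.180). Dlg4, also called PSD-95, stood at -0.17 (p = 0.759) and Snx27 at -0.39 (p = 0.228) in the authors' deposited table.

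The genes beside Ptchd1 on the X chromosome had fold changes nearer to 0. Its 10 nearest measured neighbours in RefSeq gene order, 5 on each side, had log2 fold changes between -0.31 and 0.53, per the authors' deposited table, 7 positive and 3 negative. None had an unadjusted p under 0.05, beside 6.35% of all genes above the lowest level. Of the 10, Smpx was near the lowest level (mean -2.57 log2 CPM). All but 2 of the 2118 genes within 0.5 log2 CPM of Ptchd1 also had smaller absolute fold changes. Nothing about the region is therefore read from these values. The nearest measured gene on one side, Prdx4, a peroxiredoxin of the endoplasmic reticulum, stood at -0.01 (p = 0.959) and that on the other, Phex, a peptidase of phosphate balance, at 0.50 (mean -0.67 log2 CPM, p = 0.621) in the authors' deposited table. GENCODE annotates the antisense gene Gm15156 across Ptchd1. Counting is not stated to use strand, so sense and antisense reads there cannot be told apart.

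**Figure D3:**
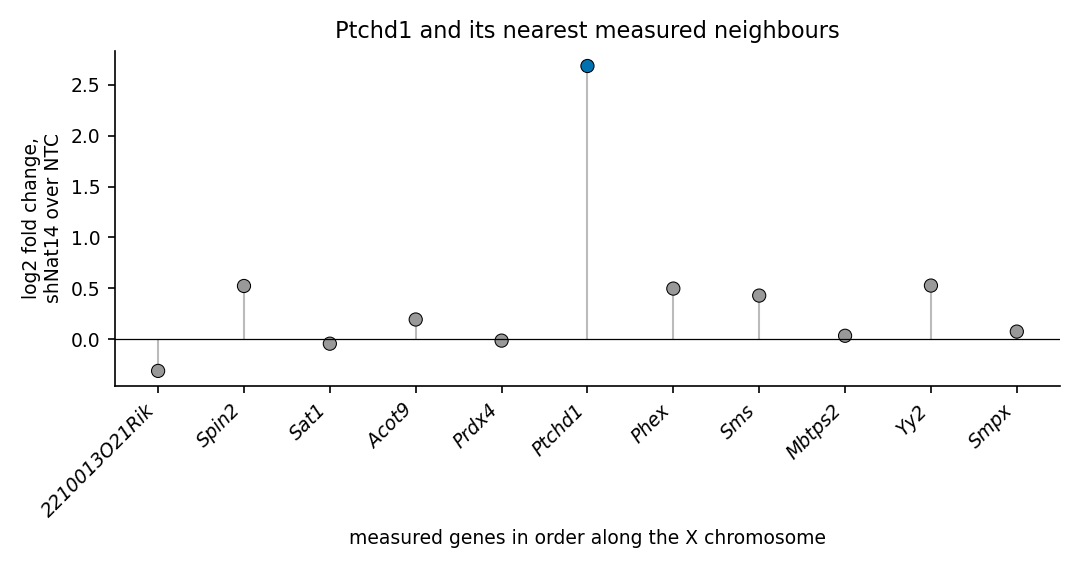
Log2 fold change (shNat14 over NTC, vertical) in the authors' deposited table for Ptchd1 (blue) and the 5 nearest measured genes on each side (grey), in order along the X chromosome with distances not to scale. Ptchd1 stands at 2.69 and its 10 neighbours lie between -0.31 and 0.53.

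Xist, the RNA of X inactivation, was called higher beside Ptchd1, and the authors' deposited table lists it at 5.12 (adjusted p = 0.0112). Of the genes on the Y chromosome, Eif2s3y, Uty, Ddx3y and Kdm5d had log2 fold changes of -1.28, -1.24, -0.94 and -0.85 in the authors' deposited table, with no call. Tsix, the antisense partner of Xist, was put by the authors' deposited table at 5.34 (p = 0.000809, adjusted p = 0.189), and its reads are subject to the same limit on strand as those at Ptchd1. Of 646 X-linked genes above the lowest level 6 were called (0.929%), Ptchd1 and Xist among them, against 28 of 16603 autosomal genes (0.169%). The choice of Ptchd1 fixes part of the X-linked count, so nothing is read from the contrast of these 2 shares. At unadjusted p under 0.05 the shares were 7.43% of X-linked and 6.29% of autosomal genes. The median log2 fold change was 0.06 for X-linked and 0.00 for autosomal genes. The part of the sex of the embryos in the level of Ptchd1 was not tested.

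Markers of cell types were counted because the members are expressed in different cells. All 9 astrocyte markers had negative fold changes, 1 of them called and 5 at unadjusted p under 0.05, with a median log2 fold change of -1.10. Radial glia and neuron markers, the second list holding pan-neuronal as well as excitatory genes, had medians of -0.11 (11 genes) and -0.03 (9 genes), with none at unadjusted p under 0.05. Medians were -0.67 for 7 interneuron, -0.47 for 7 oligodendrocyte lineage, -1.47 for 8 microglia and -0.80 for 6 meningeal markers, and 0.97 for 7 endothelial and mural and 1.14 for 6 choroid plexus and ependyma markers. In these lists 4, 1, 5, 2, 2 and 2 genes, in the order given, had an unadjusted p under 0.05, none of them called. Over all genes above the lowest level 6.35% had an unadjusted p under 0.05, 3.51% with positive and 2.84% with negative fold changes. Of the same genes 0.195% were called, and 52.4% had a positive fold change. No marker of these lists sat at the lowest level, but Flt1, Cdh5, Emcn, Kl, Slc17a7 and Foxc1 were under 1 CPM. The endothelial and mural median is the value of Flt1 (mean -0.53 log2 CPM), so its size cannot be read. By the same arithmetic, the summed level of the astrocyte markers was about 1093 CPM in shNat14 and 1792 CPM in NTC. It was 3859 CPM in shNat14 and 4338 CPM in NTC for radial glia, and 5017 CPM in shNat14 and 4788 CPM in NTC for neurons. Interneuron markers summed to 163 CPM in shNat14 and 254 CPM in NTC, and oligodendrocyte lineage markers to 145 CPM in shNat14 and 180.0 CPM in NTC. Microglia markers summed to 19.8 CPM in shNat14 and 44.4 CPM in NTC, and meningeal markers to 36.7 CPM in shNat14 and 60.6 CPM in NTC. Endothelial and mural markers summed to 27.9 CPM in shNat14 and 19.8 CPM in NTC, and choroid plexus and ependyma markers, of which Ttr made 90.5%, to 622 CPM in shNat14 and 186 CPM in NTC. These sums carry no replicate spread. The markers' part in the values of Ptchd1, Smo and the Gli genes was not tested.

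Across the table, the genes most like Ptchd1 in log2 fold change and mean log2 CPM together were Cpa3, Capsl, Fbxo36, Tm4sf1 and Dynlrb2, at distances from 0.55 to 1.20 log2 units. Likeness here covers 1 comparison and no libraries. Capsl, a calcium-binding protein gene, stood at 1.93 (p = 0.00252, adjusted p = 0.368) and Dynlrb2, a dynein light chain gene, at 1.48 (p = 0.0174, adjusted p = 0.780) in the authors' deposited table. Dynlrb2 is also in the list of choroid plexus and ependyma markers used above. Fbxo36, an F-box gene, stood at 1.67 (p = 0.0140), and Tm4sf1, a membrane protein gene, at 1.52 (p = 0.00954) in that same deposited table of the authors. No call was made for any of the 5.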

How the data were processed

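RNA of sorted GFP-positive cortical cells was sequenced in 3 shNat14 and 3 NTC libraries, grouped by sample title. The file used is the authors' own comparison. Per the file headers, the deposited values are log2 fold changes, mean log2 CPM levels, p-values and adjusted p-values, and no values per library were analysed here, so the depth behind each value is unknown. No source used here states which test, normalization or filters the authors applied. DESeq, HTSeq 0.5.4p1, SAMtools 0.1.19 and TopHat2 2.0.8 appear with no roles in the submitters' processing notes, as does the human build hg19, although samples and symbols are mouse. The build is therefore unresolved and gene coordinates are given only with RefSeq sequences.

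A call means an adjusted p below 0.05 as the authors deposited it. The members and gene lists were chosen with earlier results of these data known. Of the list entries, all matched the table by symbol except 3 that matched by an older symbol. Named genes are the members, Nat14, list genes with unadjusted p under 0.05 or the smallest p of a list, 5 neighbours on each side, the 5 genes nearest in fold change and level, and further list genes that fill a role. Marker lists are given as counts only, and 1 gene of the lists is not reported here and was left out of their counts. Older symbols, gene order and X linkage come from RefSeq GRCm38.p6 and exon lengths from GENCODE M21. Computations used Python 3.11.15, pandas 2.3.3, numpy 2.4.6 and matplotlib 3.10.9, and the p-value adjustment was checked against statsmodels 0.14.6.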

Additional observations from a re-analysis of the deposited data

How the results depend on the processing

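Of the 7 alternatives tried, 6 change only the threshold or adjustment and reuse the deposited fold changes, and the other centres them on the genes from the median level of 1.71 log2 CPM upwards, a shift of 0.03 that puts Ptchd1 at 2.65. None of them could turn a direction, so they bear on calls alone. By the authors' p-values Ptchd1 was no longer called at adjusted p under 0.01 (2.69, adjusted p = 0.0127) or after Bonferroni correction (2.69, adjusted p = 0.292), and in both the count of called members was 0 in place of 1. Its adjusted p was 0.0101 when adjusted over genes above the lowest level and 0.00973 over those from the median level upwards. The 47 pathway genes had 0 called under every one of the 7. The 7 other members above the lowest level, with deposited adjusted p of 1, were called in none, and Ptch1 and Gli1 lie below the median level and were not adjusted there; these counts say nothing of stability. Over all genes, 34 were called in the authors' deposited table, 19 at 0.01, 55 at 0.1, 43 when adjusted over genes above the lowest level, 16 over those from the median level upwards and 17 with Bonferroni. Leaving out libraries was not run, since it needs values per library. No paired analysis was possible because the columns hold no values per library. Levels under 1 CPM limit what can be said of Gli1, Shh, Ihh, Dhh, Ptchd3 and Npc1l1.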
